A study of Mus musculus with 12 samples.

Results

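The sirtuins are the 7 mouse genes Sirt1 to Sirt7, and they were followed in lung RNA over 4 ages. They were taken from the deposited table of 35275 genes by gene name, and each name matched 1 row. All 7 held enough reads to be tested, among 16042 tested genes. The lungs came from 12 male wild-type C57Bl/6J mice of an institutional ageing colony (NCGG), aged 3, 6, 12 or 24 months. Each age had 3 mice, each mouse gave its own poly(A) RNA-seq library, and no mouse carried a transgene or was given an agent, as far as the labels say. The 3-month mice served as the reference of every comparison with that age, so those comparisons share mice.

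Sirtuins are enzymes that use NAD to remove acetyl or longer acyl groups from lysines of other proteins, and each turn of the reaction uses up a molecule of NAD. SIRT1 and SIRT6 act mainly in the nucleus, SIRT7 in the nucleolus, SIRT2 mainly in the cytosol, and SIRT3, SIRT4 and SIRT5 in mitochondria. They are widely studied in ageing because their activity depends on the NAD supply and because they act in oxidative metabolism and DNA repair. In the lung, SIRT1 and SIRT6 have been studied in smoke-related disease and fibrosis. RNA levels do not measure enzyme activity, which was not part of these data.

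Sirt3, the main mitochondrial deacetylase, rose between 3 and 24 months by log2 1.74 ± 0.19 (SE, n = 3 mice per age; adjusted p = 6.6e-07, edgeR). Sirt1 fell by 3.42 ± 0.31 on the log2 scale (adjusted p = 1.6e-07). Sirt2, Sirt6 and Sirt7 also rose, by 1.19 ± 0.19, 2.29 ± 0.34 and 1.46 ± 0.25. These 5 calls stood against a background in which 82.8% of all tested genes were called, 38.2% as higher and 44.6% as lower. The 24-month libraries also differed from the rest in the mean transcript GC content of the genes counted, weighted by their reads. With a correction for transcript GC content and gene length, 5 sirtuins were called again, but not the same 5, and 56.4% of genes were called, 30.1% as higher and 26.4% as lower. Sirt3 kept a rise of 1.26 ± 0.15 and Sirt1 a smaller fall of 0.57 ± 0.21. Sirt2 and Sirt6 lost their calls, and Sirt7 changed its direction, to -0.42 ± 0.12. Sirt4 was newly called as lower (-0.70 ± 0.20) and Sirt5 as higher (0.44 ± 0.16).

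The libraries held 14.7 to 21.2 M gene reads each. The mean GC content of the transcripts, weighted by their reads, was 50.5 to 51.8% in the 9 libraries of 3 to 12 months and 54.3, 54.5 and 55.9% in those of 24 months. Reads of mitochondrially encoded genes made up 0.443 to 0.629% at 24 months and 1.65 to 3.12% in the other libraries. TMM scaling factors, which align libraries on their shared genes, were 1.06 to 1.20 for the 9 younger libraries and 0.826, 0.767 and 0.521 at 24 months, and mouse 3 lay farthest from the others. The smooth on GC content and length carried 70.8% of the variance of the fold changes at 24 against 3 months, 31.3% at 12 against 3 and 10.8% at 6 against 3. Median log2 fold changes of all genes at 24 against 3 months were -0.29 with TMM, -0.17 with RLE size factors, -1.0 with library totals and 0.01 with the correction. A difference of age and a difference of how these 3 libraries were made cannot be told apart, since no batch or date is given and all 24-month mice lie on the same side.

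Sirt1 was the sirtuin whose promoter stood out in base composition, and its promoter sequence is shown for that reason. The stretch lies at chr10:63339051-63339285 of GRCm38.p6, on the minus strand, taken from the RefSeq promoter table and ended before the first UTR base that GENCODE places there, while the deposited Sirt1 span reaches further upstream. It holds 235 bases with 78.3% GC and 36 CpG pairs. Capitals mark 2 copies of CACGTG, a form of the E-box, and 6 of GGGCGG or its reverse complement CCGCCC, the GC box. The first pair of GC boxes overlaps.
Sirt1 promoter: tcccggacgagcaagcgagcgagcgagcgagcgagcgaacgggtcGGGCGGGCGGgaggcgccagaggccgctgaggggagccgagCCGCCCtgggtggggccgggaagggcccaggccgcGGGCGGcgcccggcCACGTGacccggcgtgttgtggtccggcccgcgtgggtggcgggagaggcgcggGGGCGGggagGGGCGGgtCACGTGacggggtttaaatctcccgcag
The full 250-base window before the RefSeq start had 79.2% GC, at percentile 98.4 of 32851 such windows in the mouse, whose median was 52.4%. CACGTG was present on either strand in 6.02% of all windows and GGGCGG in 32.7%. None of the windows of the other sirtuins held CACGTG, and other forms of the E-box were not searched. The ETS motif CGGAAG, present in 13.6% of windows, was found in windows of Sirt3, Sirt6 and Sirt7. TATAAA, present in 12.4%, was in no window of the 7 genes. The windows with CGGAAG lie largely in exons that GENCODE places there. A Psmd13 exon covers 250 bases of the Sirt3 window, and exons of Sirt6 and Sirt7 cover 231 and 226 bases of theirs. These windows were not cut before such bases. In contrast to its promoter, the Sirt1 transcript was poor in GC, with 42.0% (percentile 8.58 of the tested genes), whereas Sirt6 had 59.6% (percentile 95.2).

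Levels per length were compared as FPKM, the deposited reads scaled by gene length and library total. At 3 months Sirt2 was the most abundant sirtuin at 47.8 ± 1.6 FPKM (SD, n = 3), followed by Sirt7 at 18.4 ± 1.7. The remaining 5 genes lay between 6.27 and 8.57 FPKM, in the order Sirt3, Sirt1, Sirt4, Sirt6 and Sirt5, and each overlapped its neighbour over the 3 mice. Sirt2 stood above Sirt7 in mean FPKM at every age, with ranges over mice that did not touch. Sirt1 moved from the fourth place at 3 months to the last at 12 months, at 3.87 ± 0.3 FPKM, where it still overlapped Sirt4, and at 24 months it was last at 0.481 ± 0.31, below every Sirt5 value. At 24 months Sirt6 reached 20.2 ± 8.6 FPKM and overlapped both Sirt7 (28.7 ± 3.9) and Sirt3 (16.9 ± 2.4). Per-length levels leave the GC difference between libraries in place.

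**Figure D1:**
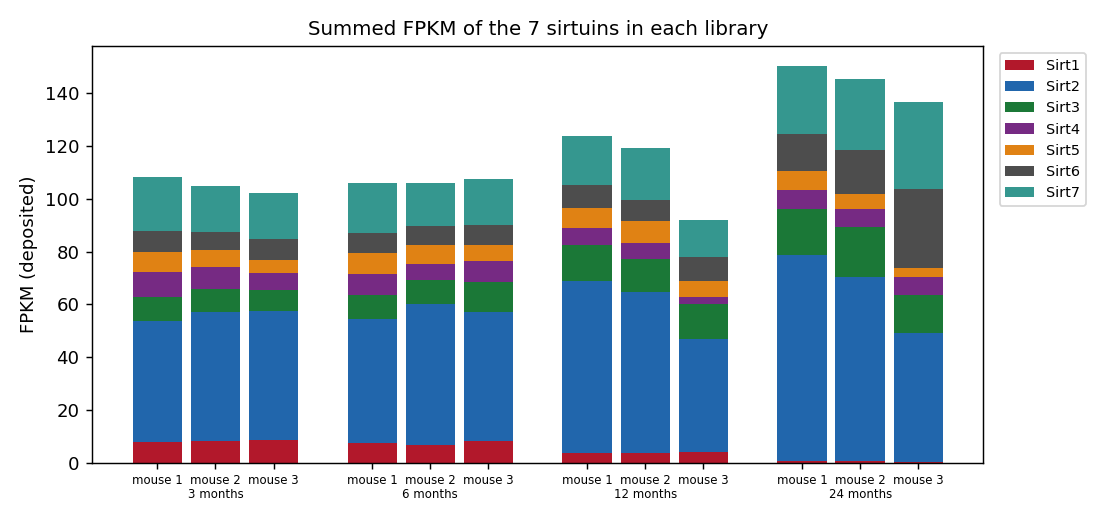
Deposited FPKM of the 7 sirtuins stacked for each of the 12 libraries (vertical axis, FPKM; horizontal axis, mouse and age). The sum was 105 ± 3.1 FPKM at 3 months and 144 ± 6.9 at 24 months, Sirt2 formed 45.3 to 50.2% of it on average at each age, and the Sirt1 band shrank from 7.85% to 0.328%.

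The stacked FPKM show a family dominated by Sirt2 at every age. Sirt2 made up 36 to 52% of the sum in single 24-month mice, with the lowest share in mouse 3, where Sirt6 held 21.9% against 9.25 and 11.5% in the other 24-month mice. Sirt4 held a share of 7.78 ± 1.4% at 3 months, 4.45 ± 1.2% at 12 and 4.83 ± 0.048% at 24 months. These shares are not independent of each other, since a rise of Sirt2 lowers the share of every other member.

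Sirt1 (ENSMUSG00000020063, chr10:63319005-63381704 of mm10, minus strand) encodes the nuclear deacetylase of p53, FOXO factors and PGC-1α. Its CPM, reads scaled to a common library size after TMM scaling, were 29.9, 30.7 and 33.0 in the 3-month mice. They were 27.7, 25.7 and 32.6 at 6 months, 14.8, 15.6 and 17.6 at 12 months, and 3.29, 4.07 and 1.05 at 24 months. No 12-month mouse reached the level of a 3-month or 6-month mouse, and every 24-month mouse lay below all 12-month mice. The 24-month libraries held 40, 56 and 9 Sirt1 reads, against 628 to 722 at 3 months. In bulk tissue, fewer cells that express a gene and less RNA per cell cannot be told apart. The fitted level at 24 months was 0.0934 of that at 3 months. At 12 against 3 months the difference was -0.96 ± 0.27 (adjusted p = 0.029, edgeR). It was -0.99, -0.99 and -0.93 on leaving out 3-month mouse 1, 2 and 3, with adjusted p values of 0.052, 0.111 and 0.111, and -0.92 and -0.94 on leaving out 12-month mouse 1 and 2 (0.091 and 0.090). These sizes are close to that over all mice, though none of them was called. Without 12-month mouse 3 Sirt1 was called, at -1.03 (adjusted p = 0.031). Of 18 alternative fits, those with the correction among them, 8 kept the Sirt1 call at 12 against 3 months and 10 lost it.

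Corrected Sirt1 CPM were 17.0, 16.1 and 16.9 at 3 months, 15.4, 16.1 and 17.8 at 6 months, 13.5, 15.7 and 9.90 at 12 months and 11.2, 14.1 and 7.31 at 24 months. The 24-month mice again lay below all 3-month mice, but by a smaller margin, and they overlapped the 12-month mice. The corrected difference was -0.57 ± 0.21 at 24 against 3 months (adjusted p = 0.032) and -0.37 ± 0.17 at 12 against 3 (adjusted p = 0.143). The corrected difference at 24 months was of like size on leaving out 3-month mouse 1, 2 or 3 (-0.59, -0.60 and -0.61), but its adjusted p went above the threshold (0.052, 0.051 and 0.051). It was -0.56 without 24-month mouse 1 (adjusted p = 0.086), -0.82 without mouse 2 (0.016) and -0.44 without mouse 3 (0.084). The smooth on GC content and length alone amounted to -2.95 for a gene like Sirt1 in this comparison.

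**Figure D2:**
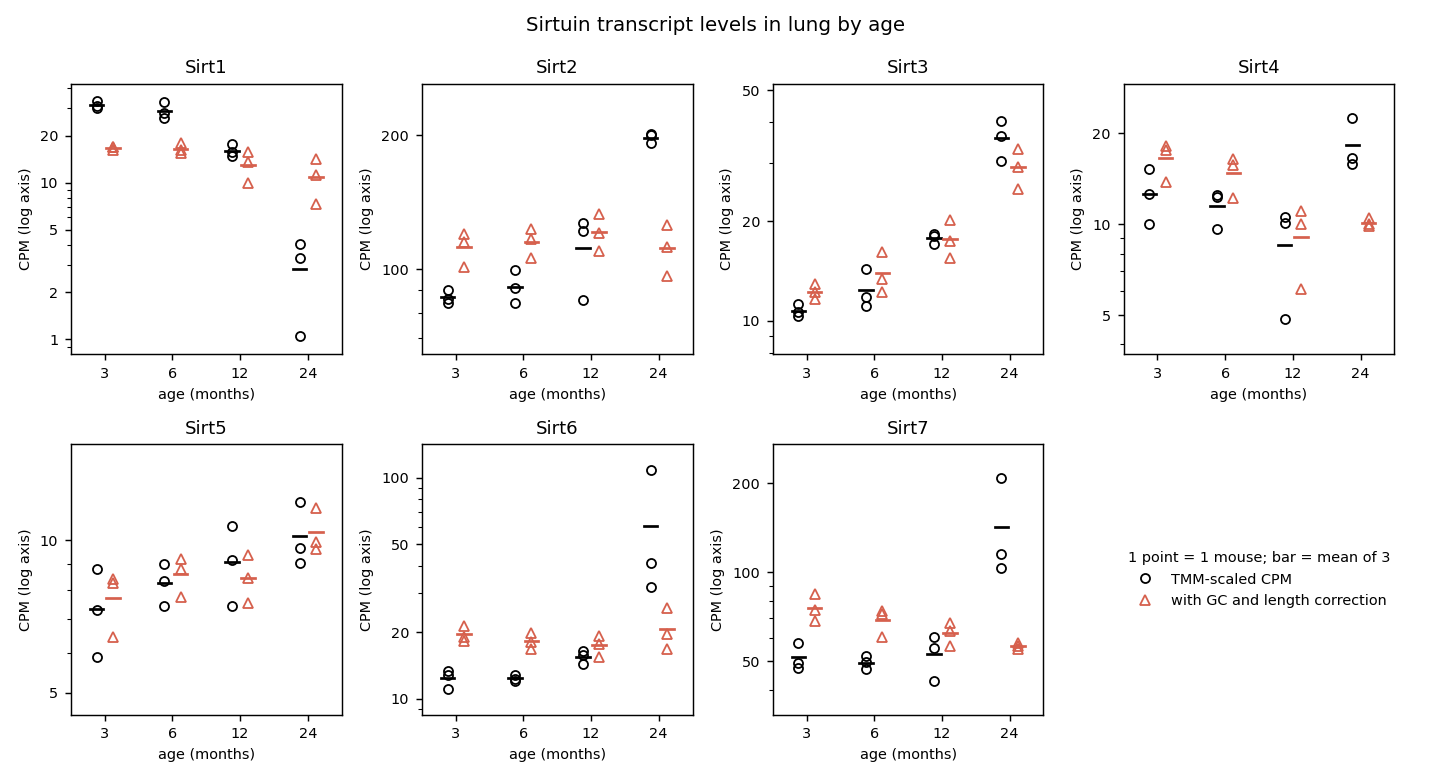
Level of each sirtuin in every mouse at 3, 6, 12 and 24 months (horizontal axis, age in months; vertical axis, CPM on a log axis with its own range per gene). Circles are TMM-scaled CPM, triangles CPM with the GC and length correction, and bars the mean of 3 mice. Sirt3 lies higher at 24 than at 3 months in both, while the circles of Sirt2, Sirt4, Sirt6 and Sirt7 lie above those of 3 months at 24 months and their triangles overlap (Sirt2, Sirt6) or lie below (Sirt4, Sirt7).

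Sirt6 (ENSMUSG00000034748, chr10:81621785-81627797, minus strand) encodes a nuclear histone H3 deacetylase that acts at telomeres and in DNA repair. Its TMM-scaled CPM were 13.3, 11 and 12.8 at 3 months, 12.3, 12.0 and 12.8 at 6 months, 15.7, 14.3 and 16.4 at 12 months and 31.9, 41.2 and 109 at 24 months. All 24-month mice lay above all younger mice, and mouse 3 held more than the other 24-month mice together. The rise from 3 to 24 months of 2.29 ± 0.34 (adjusted p = 1.6e-05, edgeR) became 1.57 ± 0.17 without 24-month mouse 3 (adjusted p = 5.2e-07) and 1.40 ± 0.26 with library totals (1.6e-04). With the correction the 24-month values of 16.8, 19.6 and 25.7 CPM surrounded the 3-month values of 19.1, 18.2 and 21.4. The corrected difference was 0.10 ± 0.16 (adjusted p = 0.624), and -0.09 ± 0.14 without 24-month mouse 3. At 12 against 3 months Sirt6 was not called (0.32 ± 0.33, and -0.16 ± 0.16 with the correction), although its TMM-scaled values did not overlap between these ages.

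Sirt7 (ENSMUSG00000025138, chr11:120618372-120625240, minus strand) encodes the nucleolar sirtuin, known for its part in ribosomal RNA transcription. Its TMM-scaled CPM were 57.7, 47.5 and 49.5 at 3 months, 51.9, 46.9 and 49.6 at 6 months, 55.5, 60.6 and 42.9 at 12 months and 103, 115 and 208 at 24 months. The 24-month mice stood above all others, with mouse 3 again highest. The difference between 24 and 3 months was 1.46 ± 0.25 (adjusted p = 5.3e-05), 1.09 ± 0.17 without 24-month mouse 3, and 0.64 ± 0.20 with library totals (adjusted p = 0.0084). With the correction the order reversed: the 3-month mice had 84.2, 68.6 and 74.6 CPM and the 24-month mice 56.3, 55.2 and 57.8. These groups did not overlap, and the corrected difference was -0.42 ± 0.12 (adjusted p = 0.0080, edgeR). It was called without any of the 24-month mice in turn, with differences of -0.43, -0.41 and -0.45 without mouse 1, 2 and 3. Sirt7 shares 124 bp with the end of Mafg on the same strand, and the sources used here do not say to which gene reads there went.

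Sirt2 (ENSMUSG00000015149, chr7:28766735-28788665, plus strand) encodes the cytosolic sirtuin, a deacetylase of tubulin. Its TMM-scaled CPM were 84.0, 85.7 and 89.8 at 3 months, 84.1, 99.5 and 90.8 at 6 months, 127, 122 and 85.4 at 12 months and 201, 192 and 200 at 24 months. The 24-month mice lay close together and far above the rest, and 12-month mouse 3 stayed at the 3-month level while the other 12-month mice were higher. The difference of 1.19 ± 0.19 between 24 and 3 months (adjusted p = 3.0e-05) was 0.46 ± 0.22 with library totals (adjusted p = 0.063). With the correction the 24-month values of 126, 112 and 96.6 CPM spanned the 3-month values of 101, 115 and 120, and the difference was -0.00 ± 0.13 (adjusted p = 0.986). At 12 against 3 months Sirt2 had 0.37 ± 0.19 (adjusted p = 0.176), and without 12-month mouse 3 it was called at 0.53 ± 0.15 (adjusted p = 0.030). Sirt2 overlaps Nfkbib, an inhibitor of NF-κB on the opposite strand, by 778 bp, and the sources used here do not say whether reads were counted by strand.

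Sirt3 (ENSMUSG00000025486, chr7:140863670-140882309, minus strand) encodes the main deacetylase of the mitochondrial matrix, which acts on superoxide dismutase SOD2 and isocitrate dehydrogenase IDH2. Its TMM-scaled CPM were 11.2, 10.6 and 10.3 at 3 months, 11.1, 11.8 and 14.3 at 6 months, 18.3, 17.1 and 18.1 at 12 months and 30.6, 36.3 and 40.3 at 24 months. The 12-month mice lay above all younger mice, and the 24-month mice above all 12-month mice. The corrected CPM kept the 3-month, 12-month and 24-month mice apart, with 11.6, 12.9 and 12.2 at 3 months, 17.5, 15.5 and 20.2 at 12 months and 25.1, 29.3 and 33.1 at 24 months. The corrected 6-month values of 12.2, 13.4 and 16.1 overlapped both of their neighbours.

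Sirt3 rose between 12 and 24 months by 1.00 ± 0.18 (adjusted p = 1.2e-04, edgeR) and by 0.72 ± 0.15 with the correction (adjusted p = 0.0012). With library totals it was not called there (0.37 ± 0.20, adjusted p = 0.106), and its rise from 3 to 24 months was 0.98 ± 0.20 (adjusted p = 4.0e-04). Between 3 and 24 months its corrected rise had an adjusted p of 8.4e-06, and it was 1.37, 1.26 and 1.19 without 24-month mouse 1, 2 and 3. At 12 against 3 months Sirt3 was also called, with a rise of 0.74 ± 0.18 (adjusted p = 0.019). The corrected rise was 0.54 ± 0.15 (adjusted p = 0.024). Its size at 12 months held when single mice were left out, while its adjusted p went above 0.05 in some cases. The rise was 0.71 and 0.70 on leaving out 3-month mouse 2 and 3 (adjusted p = 0.099 and 0.098) and 0.71 on leaving out 12-month mouse 1 (0.060). With the correction it was 0.51, 0.58 and 0.55 on leaving out 3-month mouse 1, 2 and 3 (0.061, 0.069 and 0.070) and 0.45 on leaving out 12-month mouse 3 (0.066). The Sirt3 gene overlaps Psmd13, a proteasome subunit, by 342 bp and Ric8 by 61 bp, both on the opposite strand, and these neighbours held 641 to 2136 and 1181 to 2721 reads per library against 196 to 499 for Sirt3. The part of these overlaps in the Sirt3 values was not tested.

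Sirt4 (ENSMUSG00000029524, chr5:115478010-115484725, minus strand) encodes a mitochondrial sirtuin with weak deacetylase activity that restrains glutamate dehydrogenase and pyruvate dehydrogenase. Its TMM-scaled CPM were 15.2, 12.6 and 9.99 at 3 months, 12.3, 9.63 and 12.5 at 6 months, 10.6, 10.1 and 4.84 at 12 months and 15.8, 16.6 and 22.5 at 24 months. The 24-month mice lay just above the highest 3-month mouse, and 12-month mouse 3 was the lowest of all 12. The difference of 0.53 ± 0.28 at 24 against 3 months was not called (adjusted p = 0.085). It was 0.69 with RLE size factors (adjusted p = 0.037) and 0.70 with DESeq2 (0.030), both called, and -0.24 with library totals (0.445). Without 3-month mouse 3, the lowest of its age, it was 0.16 (adjusted p = 0.640). With the correction the 3-month mice had 18.2, 17.6 and 13.8 CPM, the 12-month mice 11.1, 10 and 6.10, and the 24-month mice 10, 9.86 and 10.5. Both older groups then lay below all 3-month mice, and Sirt4 was called lower at 12 months (-0.86 ± 0.20, adjusted p = 0.011) and at 24 months (-0.70 ± 0.20, adjusted p = 0.0078). The corrected call at 12 months was lost without 3-month mouse 2 (-0.81, adjusted p = 0.058).

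Sirt5 (ENSMUSG00000054021, chr13:43370710-43395202, plus strand) encodes the mitochondrial sirtuin that removes succinyl, malonyl and glutaryl groups. It had few reads, 77 to 212 per library, and its TMM-scaled CPM were 8.77, 7.30 and 5.89 at 3 months, 8.97, 8.32 and 7.41 at 6 months, 9.13, 10.7 and 7.41 at 12 months and 11.9, 9.67 and 9.02 at 24 months. The 24-month mice lay above the 3-month mice by a narrow margin and overlapped those of 12 months. The difference at 24 against 3 months was 0.48 ± 0.23 (adjusted p = 0.062, edgeR), 0.61 with RLE size factors (0.014), 0.60 with DESeq2 (0.0072) and -0.24 with library totals (0.448), and was called at 0.55 without 24-month mouse 3 (0.033). It was 0.12 without 3-month mouse 3 (adjusted p = 0.688) and 0.35 without 24-month mouse 1 (0.203). In mean FPKM, which use library totals, Sirt5 was lower at 24 months, 5.34 ± 1.9 against 6.27 ± 1.2 at 3 months, so its direction depended on the scaling. With the correction Sirt5 was called at 0.44 ± 0.16 (adjusted p = 0.034), but not without 3-month mouse 3 (0.32, adjusted p = 0.15) or 24-month mouse 1 (0.35, adjusted p = 0.118). The authors' deposited table gave Sirt5 a log2 fold change of 0.54199 with an adjusted p of 0.043441, and Sirt4 0.61881 with 0.051892.

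**Figure D3:**
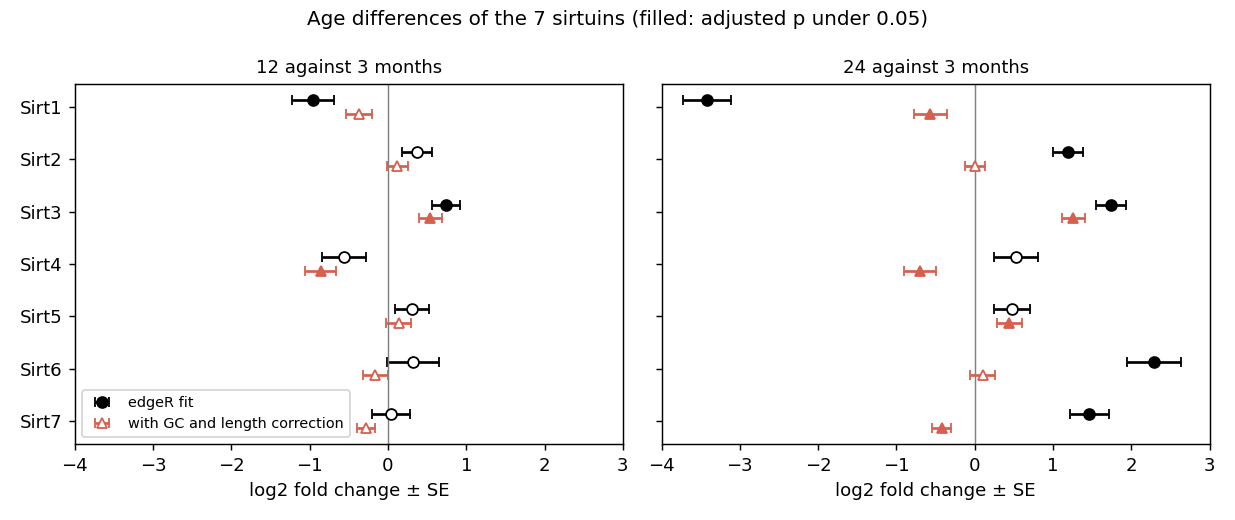
Log2 fold change of each sirtuin at 12 against 3 months (left) and 24 against 3 months (right), with SE bars (horizontal axis, log2 fold change; vertical axis, gene; 3 mice per age). Circles are from the edgeR fit and triangles from the fit with the GC and length correction, filled where the adjusted p was under 0.05; at 24 months the triangles lie between -0.70 and 1.26, and the circles between -3.42 and 2.29.

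The plot of fold changes shows the reach of the correction at 24 months and its smaller reach at 12 months. The fold changes of the 7 sirtuins at 24 against 3 months followed the order of their GC content in part. Among genes of 42 to 44% GC, where Sirt1 lies, the median log2 fold change was -2.71, with a 10th percentile of -3.70. Among genes of 58 to 60% GC, where Sirt6 lies, the median was 2.17, close to the 2.29 of Sirt6. Sirt3 (52.2% GC) lay at 1.74 in a bin with a median of 0.81 and a 90th percentile of 2.03. Sirt4 (54.8% GC) and Sirt2 (54.4%) lay at 0.53 and 1.19 in a bin with a median of 1.43, and Sirt7 (57.1%) at 1.46 where the median was 1.86. Every sirtuin thus lay within the 10th to 90th percentile of genes of like GC content before the correction. With the correction this held for every sirtuin too. Corrected Sirt3, at 1.26, lay just under the corrected 90th percentile of its bin, 1.31.

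**Figure D4:**
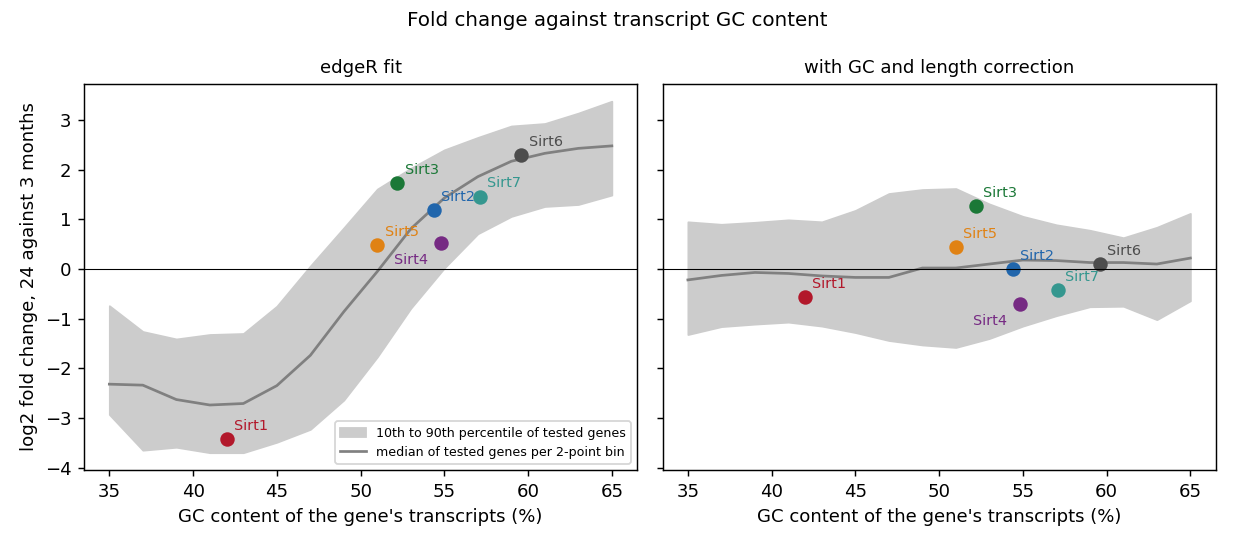
Log2 fold change at 24 against 3 months (vertical axis) against the GC content of a gene's transcripts in percent (horizontal axis), without (left) and with (right) the GC and length correction. The line is the median of tested genes in 2-point bins and the band their 10th to 90th percentile. Before the correction the line rises from -2.74 at 40 to 42% to 2.48 at 64 to 66% GC. Each of the 7 labelled sirtuins lies inside the band, both without and with the correction.

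At 12 against 3 months 2 sirtuins were called without the correction, Sirt3 as higher and Sirt1 as lower, where 15.2% of all tested genes were called (6.30% as higher, 8.87% as lower). With the correction 2 were called, Sirt3 as higher and Sirt4 as lower, against 19.0% of genes (10.5% and 8.55%). The 3 mice of each age did not overlap for 3 of the 7 sirtuins, and for 4 with the correction, where this held for 44.4% and 43.8% of all tested genes. At 24 against 3 months they did not overlap for 7 and 5 sirtuins, against 84.4% and 61.4% of genes. At 6 against 3 months none was called, with 0% of genes called by edgeR without the correction and 0.00627% with it. DESeq2 and limma voom called no sirtuin there either, no sirtuin had an unadjusted edgeR p under 0.05, and the largest difference was 0.21 ± 0.18, for Sirt3. At 12 against 6 months none was called either (background 2.03%, and 6.04% with the correction). Sirt1 (-0.84 ± 0.27, adjusted p = 0.092) and Sirt3 (0.52 ± 0.18, adjusted p = 0.115) had an unadjusted p under 0.05 in that comparison, 0.0066 and 0.012, as had Sirt3 and Sirt4 with the correction (0.034 and 0.0040), and DESeq2 called 1 sirtuin.

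At 24 against 6 months 6 sirtuins were called, 5 higher and 1 lower, where 81.8% of genes were called (37.9% higher, 44.0% lower). With the correction 3 were called, Sirt3 higher and Sirt1 and Sirt4 lower, against 53.4% of genes (28.6% and 24.9%). At 24 against 12 months 6 were called, 5 higher and 1 lower, where 79.7% of genes were called (37.3% higher, 42.5% lower). With the correction Sirt3 was called as higher, against 42.5% of genes (21.4% and 21.1%). A difference among the ages in any direction was called for 6 sirtuins, all but Sirt5, and with the correction for Sirt3, Sirt4 and Sirt7 (background 84.6% and 57.1%). A trend on log2 age was called for 5 sirtuins, 4 rising and Sirt1 falling, where 72.4% of genes were called (35.4% rising, 37.0% falling). With the correction it was called for 4, Sirt3 rising and Sirt1, Sirt4 and Sirt7 falling, against 48.9% of genes (28.3% and 20.6%). Per doubling of age Sirt3 rose by 0.58 ± 0.09, and by 0.42 ± 0.06 with the correction (adjusted p = 1.1e-04). The corrected slopes of Sirt1, Sirt4 and Sirt7 were -0.21 ± 0.07, -0.28 ± 0.07 and -0.14 ± 0.04 (adjusted p = 0.020, 0.0075 and 0.0084).

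Genes whose log2 CPM followed a sirtuin most closely over the 12 libraries were sought as a description. Sirt1 ran closest to Paxbp1 and Tbc1d12 (Pearson r = 0.998 for both), and these had r = 0.987 and 0.971 over the 9 libraries of 3 to 12 months. Such values were common, since 4766 tested genes had an r above 0.9 with Sirt1 over all libraries, which share the shift at 24 months. Sirt3 ran closest to Pars2, the mitochondrial prolyl-tRNA synthetase (r = 0.988, and 0.963 over 9 libraries), Aqp1, a water channel (0.987 and 0.949), and Coq6, an enzyme of ubiquinone synthesis (0.987 and 0.943). These too were among many, since 3215 tested genes had an r above 0.9 with Sirt3 over all libraries.

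For Sirt2 the closest gene was Trappc12 (r = 0.994), for Sirt6 Arrdc1 (0.997) and for Sirt7 Cyp4f13 (0.996). Over all libraries 2874, 3342 and 3623 tested genes had an r above 0.9 with Sirt2, Sirt6 and Sirt7. Sirt4 and Sirt5 stood apart from this crowd. Only 95 genes had an r above 0.9 with Sirt4, led by Zfp692 and Fbxl14 (0.972 for both), and none with Sirt5, led by Urod, an enzyme of haem synthesis (0.895).

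Between the sirtuins themselves, Sirt1 and Sirt3 ran in opposite directions over the 12 libraries (r = -0.95). They did so too over the 9 libraries of 3 to 12 months (-0.88) and over 12 libraries with the correction (-0.79). Sirt1 was opposed as closely to Sirt2, Sirt6 and Sirt7 over the 12 libraries (-0.94, -0.97 and -0.96). These pairs had -0.75, -0.79 and -0.26 over the 9 libraries, and 0.35, -0.49 and 0.68 with the correction. Sirt3 and Sirt7 had 0.88 over 12 libraries, but -0.81 with the correction. Sirt6 and Sirt7 ran together over 12 libraries (0.97), but not over the 9 (0.12) or with the correction (-0.03). Sirt4 and Sirt7 had r = 0.76, 0.59 over the 9 libraries and 0.80 with the correction. These values describe libraries that share an age shift and its GC component.

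Genes of NAD supply were examined next, because sirtuins depend on this cofactor. Of the 18 tested of 20 listed, 5 rose and 10 fell at 24 against 3 months (median log2 fold change -0.83, against -0.29 over all tested genes), and with the correction 6 rose and 3 fell (median -0.02, against 0.01 over all genes). Of all tested genes 38.2% rose and 44.6% fell, and 30.1% and 26.4% with the correction. These medians and shares of all genes apply to the lists that follow too. Nampt, the rate-limiting enzyme of NAD salvage, went from 84.9 ± 12.7 CPM at 3 months to 15.2 ± 3.62 at 24 months (-2.47 ± 0.29, adjusted p = 1.4e-06), but with the correction it was higher at 24 months (0.47 ± 0.14, adjusted p = 0.012). Nmrk1, a nicotinamide riboside kinase, fell both without (-2.79 ± 0.37) and with the correction (-1.33 ± 0.29, adjusted p = 0.0015), and was also lower at 12 months (-1.08 ± 0.30, and -1.03 ± 0.23 with the correction, adjusted p = 0.030 and 0.0088). Nadk2, the mitochondrial NAD kinase, fell by 3.06 ± 0.24 and with the correction by 0.55 ± 0.16 (adjusted p = 0.0089).

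Among 12 tested NAD consumers other than sirtuins, 3 rose and 8 fell (median -1.54), where 82.8% of all genes were called, 44.6% as lower. With the correction 3 rose and 4 fell (median 0.03), and that share of members called lay near the 56.4% of all genes. Cd38, a surface enzyme that degrades NAD, went from 38.1 ± 6.28 to 4.57 ± 0.725 CPM (-3.05 ± 0.25, and -0.66 ± 0.18 with the correction, adjusted p = 0.0058). Parp1, the main poly(ADP-ribose) polymerase of DNA repair, was higher at 24 months (0.76 ± 0.20, adjusted p = 0.0024), but was not called with the correction (0.18 ± 0.10, adjusted p = 0.160). The tankyrases Tnks and Tnks2 both fell (-3.49 ± 0.33 and -3.10 ± 0.21). With the correction Tnks had -0.85 ± 0.26 (adjusted p = 0.011) and Tnks2 -0.18 ± 0.16 (adjusted p = 0.372), and the difference between them was not tested.

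Of 14 regulators and nuclear substrates of SIRT1, 10 rose and 4 fell (median 1.60), against 38.2% and 44.6% of all genes. With the correction 6 rose and 3 fell (median 0.19), against 30.1% and 26.4%. Ccar2, a protein that binds and inhibits SIRT1, rose from 61.1 ± 2.49 to 242 ± 80.8 CPM (1.98 ± 0.22, adjusted p = 1.0e-06) and kept a rise of 0.91 ± 0.16 with the correction (adjusted p = 2.3e-04). Foxo1 and Foxo3, transcription factors that SIRT1 deacetylates, fell at 24 months in the uncorrected fit (-2.56 ± 0.20 and -0.79 ± 0.23) and with the correction (-0.90 ± 0.12 and -2.49 ± 0.25). They were also lower at 12 months, with -0.86 ± 0.19 and -0.93 ± 0.23 (adjusted p = 0.010 and 0.018), and -0.38 ± 0.11 and -1.02 ± 0.24 with the correction (0.033 and 0.011). Hif1a and Ppargc1a, which encode a hypoxia factor and a coactivator of mitochondrial genes, fell (-3.10 ± 0.28 and -3.09 ± 0.41), but were not called with the correction (-0.16 ± 0.14 and -0.51 ± 0.38). Foxo4, named after its values were seen because it belongs to the same family, rose by 1.49 ± 0.21 (adjusted p = 7.0e-06), and had -0.19 ± 0.15 with the correction (adjusted p = 0.289). The 10 members that rose spanned 1.49 to 3.13.

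Of 14 tested mitochondrial substrates of sirtuins, of 15 listed, 5 rose and 7 fell (median -0.32), a split near the 38.2% and 44.6% of all genes. With the correction 8 rose and 2 fell (median 0.52, all genes 0.01), against 30.1% and 26.4%. Sod2, the manganese superoxide dismutase that SIRT3 deacetylates, had 76.3 ± 3.60 CPM at 3 and 74.1 ± 11.6 at 24 months (-0.04 ± 0.20, adjusted p = 0.857), and with the correction it rose by 0.94 ± 0.13 (adjusted p = 3.0e-05). Idh2, another SIRT3 substrate, rose by 1.37 ± 0.19, but had -0.07 ± 0.15 with the correction (adjusted p = 0.723). Ppif, the cyclophilin of the permeability pore, rose in both (1.83 ± 0.19 and 0.82 ± 0.14), and Pdha1, a pyruvate dehydrogenase subunit, fell in both (-2.59 ± 0.25 and -0.86 ± 0.15). Dlat, the next subunit of that complex, fell by 1.71 ± 0.16, and had 0.01 ± 0.15 with the correction.

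The zinc-dependent deacetylases, which remove the same acetyl groups without NAD, rose in 7 and fell in 4 of 11 cases (median 0.60), where 82.8% of all genes were called, 38.2% as higher. With the correction 4 rose and 1 fell (median 0.10), where 56.4% of genes were called. Hdac11 rose in both fits (2.25 ± 0.27 and 0.36 ± 0.14, adjusted p = 0.034), whereas Hdac2 (-2.61 ± 0.23) and Hdac5 (2.46 ± 0.33) were not called with the correction (0.05 ± 0.21 and 0.14 ± 0.11).

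The acetyltransferases, which place these groups, rose in 2 and fell in 6 of 10 cases (median -1.84), against 38.2% and 44.6% of all genes. With the correction they rose in 3 and fell in 6 (median -0.95), against 30.1% and 26.4%. Ep300 fell from 90.9 ± 24.7 to 8.64 ± 0.794 CPM (-3.39 ± 0.24, and -1.63 ± 0.15 with the correction, adjusted p = 8.9e-07). It was already lower at 12 months (-1.60 ± 0.22, and -0.92 ± 0.14 with the correction, adjusted p = 0.0015 and 0.0013). Kat2b and Kat6a also fell at 24 months in both fits, to corrected differences of -0.94 ± 0.11 and -1.05 ± 0.16.

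Cell type markers moved with age beside these results, in a comparison where 38.2% of all genes were called higher and 44.6% lower (30.1% and 26.4% with the correction). Markers of lung epithelium and endothelium were high in every library, as the tissue label says, with alveolar type 2 sums of 22183 to 27167 CPM at 3 months and 34376 to 42258 at 24 months. Singly, 3 of the 5 type 2 markers rose and 2 fell at 24 months, and with the correction 2 rose and 3 fell (median -0.33). Alveolar type 1 sums went from 2915 to 3945 up to 8607 to 12365 CPM at 24 months, where 2 of 4 rose and 2 fell. With the correction only 1 of these was called, as lower. Ciliated sums of 450 to 589 CPM became 1546 to 2402, with 2 of 3 higher and 1 lower (with the correction 1 lower). The 3 measured alveolar macrophage markers summed to 577 to 716 CPM at 3 months and 140 to 182 at 24 months, where 2 fell and 1 rose, and with the correction 2 fell. Plasma cell markers, 2 measured, went from 9.85 to 16.4 CPM up to 140 to 294, and both rose with and without the correction. B cell sums went from 45.3 to 88.5 up to 166 to 516 CPM, with 2 of 3 called higher in both fits. T cell sums went from 11.9 to 16.0 up to 39.3 to 79.6 CPM, with 1 of 3 called higher without and 3 of 3 with the correction. Erythroid sums of 818 to 1466 CPM at 3 months became 2413 to 4896, with 2 of 3 called higher in both fits. Skeletal muscle sums of 4.89 to 7.03 became 17.7 to 341, which overlapped the 12.2 to 18.1 of 12 months. Of these 3 markers 2 were called higher, and 1 with the correction. Heart muscle sums of 262 to 474 CPM at 3 months became 582 to 932 at 24 months. Of its 5 markers 4 were called higher, and with the correction 1 higher and 1 lower. At 12 against 3 months 3 of them were called higher, and 2 with the correction, against 6.30% and 10.5% of all genes. The thymus markers Dntt, Rag1 and Ptcra had no read at 24 months, but were near 0 at every age and were not tested. They summed to 0.368 to 0.538 CPM at 3 months and 0 to 0.216 at 12 months, and Ptcra had no read at 3 months. The part of these cell types in the sirtuin differences was not tested.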

How the data were processed

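Reads per gene of 12 lung libraries were deposited by the authors as counts, per the file headers, together with FPKM for each library. Recomputed FPKM matched 235411 of 235411 values within 1e-06. The authors also deposited log2 fold changes against 3 months and their p values, by a tool not given in the sources used here. A further 10 columns of age means were not used. The build was mm10, per the submitters' processing notes, which list STAR 2.5, TopHat and HTSeq 0.6.1 and do not say what each did. Libraries were made from RNAlater-kept lung with the NEBNext Ultra kit, per the labels' protocols. The sources used here do not give the strandedness or the treatment of reads on overlapping genes.

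Counts were filtered with filterByExpr, scaled with TMM and tested over all 12 libraries with edgeR 4.0.16 in R 4.3.3, using its robust quasi-likelihood fit and F test. Each library was 1 mouse. Adjustment was Benjamini-Hochberg over 16042 genes, called under 0.05, and the SE came from the fold change and its F statistic. Groups of 3 mice limit the precision. The GC and length correction fitted, in each library, a smooth of log2 CPM deviations (prior count 2) on transcript GC content (GENCODE M21) and deposited gene length (mgcv 1.9.3), and entered it as an offset for 15949 genes. It removes every difference that follows these properties, whatever its source. Alternatives were RLE, DESeq2 1.42.0, limma voom (limma 3.58.1), other filters, mouse number as a block, subsets of libraries, a linear age scale and leaving out each mouse. Library totals without TMM, and the correction without single mice or without the 24-month libraries, were added after seeing the data. The scripts were tested on simulated data.

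Sirtuins, gene lists and tests were chosen with earlier results of these data known. All 7 sirtuins were named, with up to 3 members of smallest p per list at 24 against 3 months, 8 fixed genes (Nampt, Parp1, Cd38, Ccar2, Ppargc1a, Foxo3, Sod2, Idh2), and up to 3 genes of highest r per sirtuin. Promoters came from RefSeq (GRCm38.p6) and matched all 7. Motifs were searched on both strands.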

Additional observations from a re-analysis of the deposited data

How the results depend on the processing

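Depth limits Sirt1 at 24 months, with 9 to 56 reads, and Sirt5, with 77 to 212. Single libraries were not tested as outliers. At 24 against 3 months the correction turned Sirt2 to -0.00 (-0.01 with the block), Sirt4 to -0.70 (-0.69 for GC content only, -0.69 with the block) and Sirt7 to -0.42 (-0.31 and -0.42). At 24 against 12 months Sirt2 had -0.12 in all 3 corrected fits and Sirt7 -0.14, -0.02 and -0.14. The cause was not tested.

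Counts of sirtuins called moved as follows. At 24 against 3 months, 5 (4 higher, 1 lower) became 7 with RLE and with DESeq2 (6 higher, 1 lower) and 4 with library totals (3 higher, 1 lower). At 12 against 3 months, 2 became 0 with library totals and 1 with mouse number as a replicate block, where Sirt1 lost its call (adjusted p = 0.053). At 12 against 6 months, 0 became 1 with DESeq2, 2 without the 24-month libraries and 1 with only the 6 mice, and the corrected 0 became 1 without the 24-month libraries. The 3 corrected fits gave 3 at 24 against 6 months, 1 at 24 against 12 and 3 for any difference, and library totals gave 3 at 24 against 12 months.

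Leaving out each mouse in turn gave 5 to 6 calls at 24 against 3 months, 0 to 3 at 12 against 3, 0 to 2 at 12 against 6, 5 to 6 at 24 against 6 and 5 to 6 for any difference. With the correction it gave 3 to 5, 0 to 2, 0 to 1, 1 to 3 and 2 to 4, 1 at 24 against 12 months and 4 to 5 for the trend. Same-numbered mice were not treated as paired in the main fit, and the labels do not say what the number stands for. The r of their deviations had a median of -0.05 over 18 pairs (-0.246 to 0.186), and 4 pairs exceeded 0.1. Such values cannot settle whether same-numbered mice were handled together. The block ended no other sirtuin call in the comparisons with 3 months or at 24 against 12 months.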
